A study of Mus musculus with 8 samples.

Results

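Collagens, laminins and matricellular genes encode much of the scaffold that cells deposit around themselves. They were taken here as every gene whose symbol is Col, a number, a and a number, every Lama, Lamb and Lamc gene, and Thbs1 to Thbs4, Fn1, Sparc, Nid1, Nid2, Hspg2, Agrn, Tnc and Mfap2. This gave 67 of the 46406 genes in the table, of which 33 had a mean of at least 1 FPKM over the 8 libraries and were tested. FPKM is the number of sequenced fragments of a gene scaled by its length and by the mapped total of the library, so that levels of different genes can be set side by side. Poly(A) RNA was sequenced from anterior neural progenitor cells (AntNPC), which resemble the early forebrain epithelium and were differentiated from the E14 line of mouse embryonic stem cells. All cells were grown without serum in N2B27 medium for 5 days, with 10 ng/ml bFgf until day 3 and with 5 μM of the WNT inhibitor Xav939 from day 2. The WT group had 4 libraries of unedited E14 cells. The null cells carried a CRISPR-Cas9 deletion on both alleles of PE Lhx5(-109), a poised enhancer of the transcription factor gene Lhx5 (the number in its name is a distance in kb), and came from 2 lines, with 2 libraries of clone 1 and 2 of clone 2. Each null line grew from a single edited cell and the labels describe no such step for WT, so an effect of the deletion and one of cloning cannot be told apart. The labels call the libraries biological replicates, but those of a clone share a line, so p-values measure the spread between these libraries.

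The extracellular matrix of an epithelium has a thin sheet beneath the cells, the basement membrane, and a looser network beyond it. Laminins, each made of an alpha, a beta and a gamma chain, form the first sheet, which nidogens and the heparan sulfate proteoglycans agrin and perlecan tie to a network of collagen IV. The neural plate and neural tube rest on such a membrane. Fibrillar collagens form the cables of connective tissue and cartilage, fibronectin is bound by integrins on the cell surface, and matricellular proteins such as thrombospondins and Sparc act mainly as signals and regulators of assembly.

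Sequencing depth per library is unknown. An estimate of it relative to WT replicate 1, from genes with very few reads, ranged from 0.987 to 1.2. That estimate was searched only near the depth of WT replicate 1, so it could not have shown a large difference. In each library 13983 to 14338 genes reached 1 FPKM. Lhx5 stood at 16.4 ± 1.05 FPKM (SD, n = 4) in WT, 1.05 ± 0.272 in clone 1 and 1.58 ± 0.448 in clone 2 (n = 2 each). Clone 1 replicate 2 stood apart in RNAs that carry no poly(A) tail: Rn7sk, Rpph1 and Rmrp were at 250.2, 371 and 112 FPKM there, against at most 28.4, 22.8 and 7.62 in the other libraries. Counts of changed genes in clone 1 were therefore also taken without that library.

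The matrix genes of these cells were led by Col18a1, the basement membrane collagen that yields endostatin, at a mean over all libraries of 66.9 FPKM. Sparc (65.5 FPKM), Thbs1 (64.2), Agrn (51.4), Thbs3 (41.9), Fn1 (41.2) and Col2a1 (30.8) followed. In WT the order was different, since Thbs1 stood first at 84.4 ± 6.25 FPKM, above all WT values of Col18a1 and Sparc, whose ranges overlapped. The laminin chains Lamc1, Lama5, Lamb1 and Lamb2 lay between 16.9 and 28.7 FPKM, and Lama1 at 5.86. The tested cartilage and connective tissue collagens other than Col2a1 were low, between 1.1 FPKM for Col6a1 and 9.86 for Col5a1. Col6a1 was the gene just inside the limit of 1 FPKM, and Thbs2 (0.784 FPKM) and Col6a2 (0.763) were the nearest outside it. Summed over the 67 genes, the WT libraries held 609.9, 624.2, 620.0 and 599.2 FPKM, clone 1 held 556.3 and 516.0, and clone 2 held 622.0 and 606.8. Both clone 1 libraries lay below all others. Without Thbs1 the sums were 520.4 to 544.9 FPKM in WT, 522.6 and 489.0 in clone 1, and 562.3 and 551.4 in clone 2. Then 1 clone 1 library fell within the WT range and both clone 2 libraries lay above it. The library at 489.0 was clone 1 replicate 2. Its scaling factor by the median of ratios was 0.9403, against 1.001 to 1.021 elsewhere, and these sums were not rescaled.

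**Figure D1:**
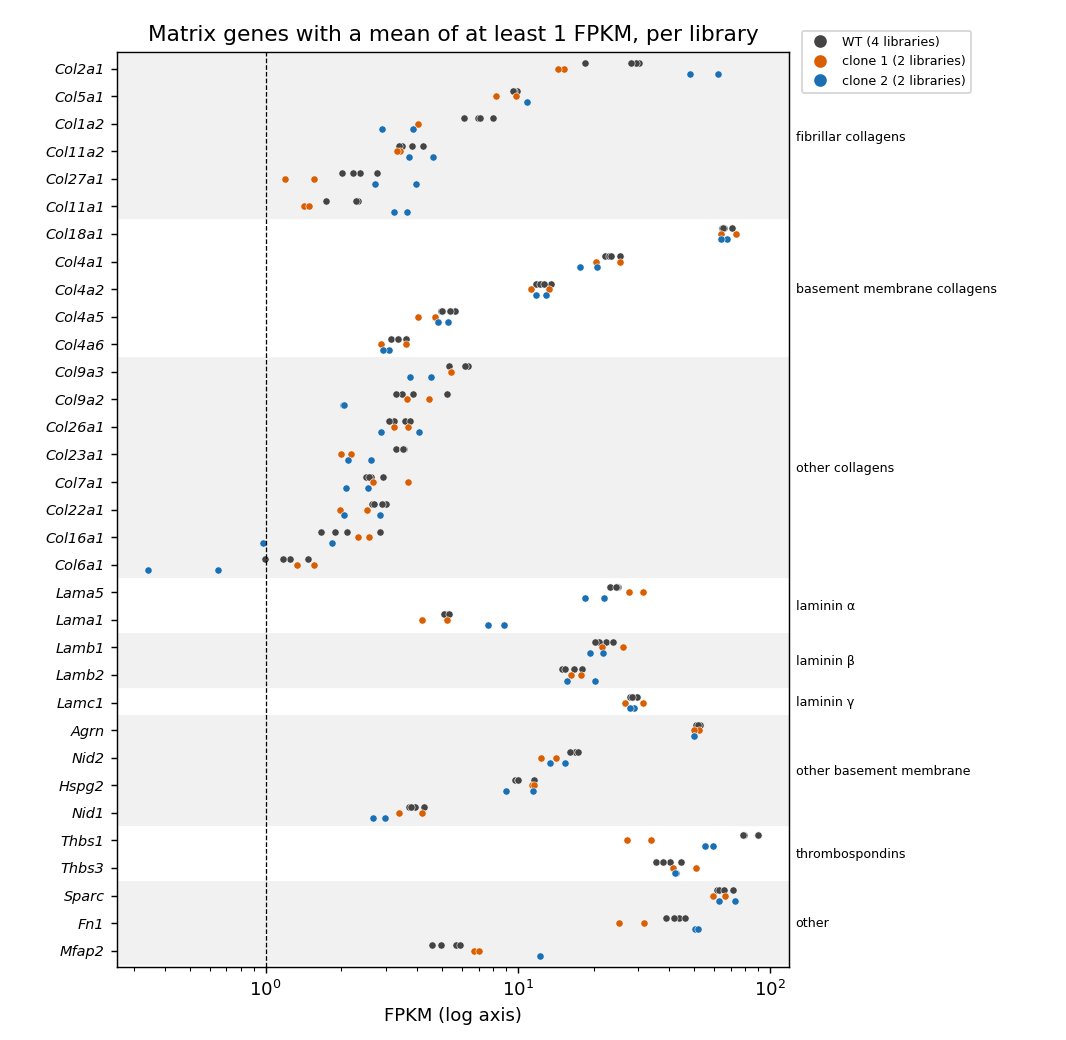
Level of each of the 33 matrix genes with a mean of at least 1 FPKM, grouped by role; the horizontal axis is FPKM on a log scale, each point is a library, and the dashed line marks 1 FPKM. Col18a1, Sparc and Agrn keep their 8 points close together, whereas Thbs1, Fn1, Col2a1 and Mfap2 separate by line and Col6a1 has clone 2 apart from the rest.

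Of the 33 tested genes, 8 changed in clone 1 against WT: Mfap2 rose, and Thbs1, Col1a2, Fn1, Col23a1, Col27a1, Col11a1 and Nid2 fell (limma, Benjamini-Hochberg adjusted p under 0.05). Over all 14521 genes tested, 15.6 percent changed in that comparison, 4.16 percent upwards and 11.4 percent downwards. Among the matrix genes it was 24.2 percent, 3.03 percent upwards and 21.2 percent downwards, a difference from the background that was not tested. In clone 2 against WT 11 changed: Mfap2, Col2a1, Lama1 and Col11a1 rose, and Col1a2, Col9a2, Col6a1, Thbs1, Col9a3, Col23a1 and Nid1 fell. This share of 33.3 percent compares with a background of 14.0 percent, of which 7.06 percent were upwards and 6.96 percent downwards. Both comparisons share the 4 WT libraries. Between the clones 13 of 33 genes differed, 8 higher and 5 lower in clone 2, a share of 39.4 percent that was near the background of 39.9 percent. The typical change was small: the median log2 fold change of the matrix genes was -0.04 in clone 1 and -0.05 in clone 2, against -0.05 and 0.00 over all genes tested, and the median absolute change was 0.14 and 0.22 against 0.13 and 0.12. All log2 fold changes are on log2(FPKM + 1), which understates changes of low genes.

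These counts depend on single libraries. In clone 1 the count was 1 without clone 1 replicate 2, with a background of 3.05 percent, and only Thbs1 remained past the threshold. With WT replicate 1 or WT replicate 3 left out 4 genes passed (backgrounds of 7.4 and 7.15 percent), and with WT replicate 4 left out 5 did (6.83 percent). In clone 2 it was 2 without clone 2 replicate 2, with a background of 1.20 percent, and 5 without WT replicate 4, with one of 5.27 percent. Rescaling each library by the median of ratios moved the split in clone 1 from 1 higher and 7 lower to 2 higher and 5 lower.

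**Figure D2:**
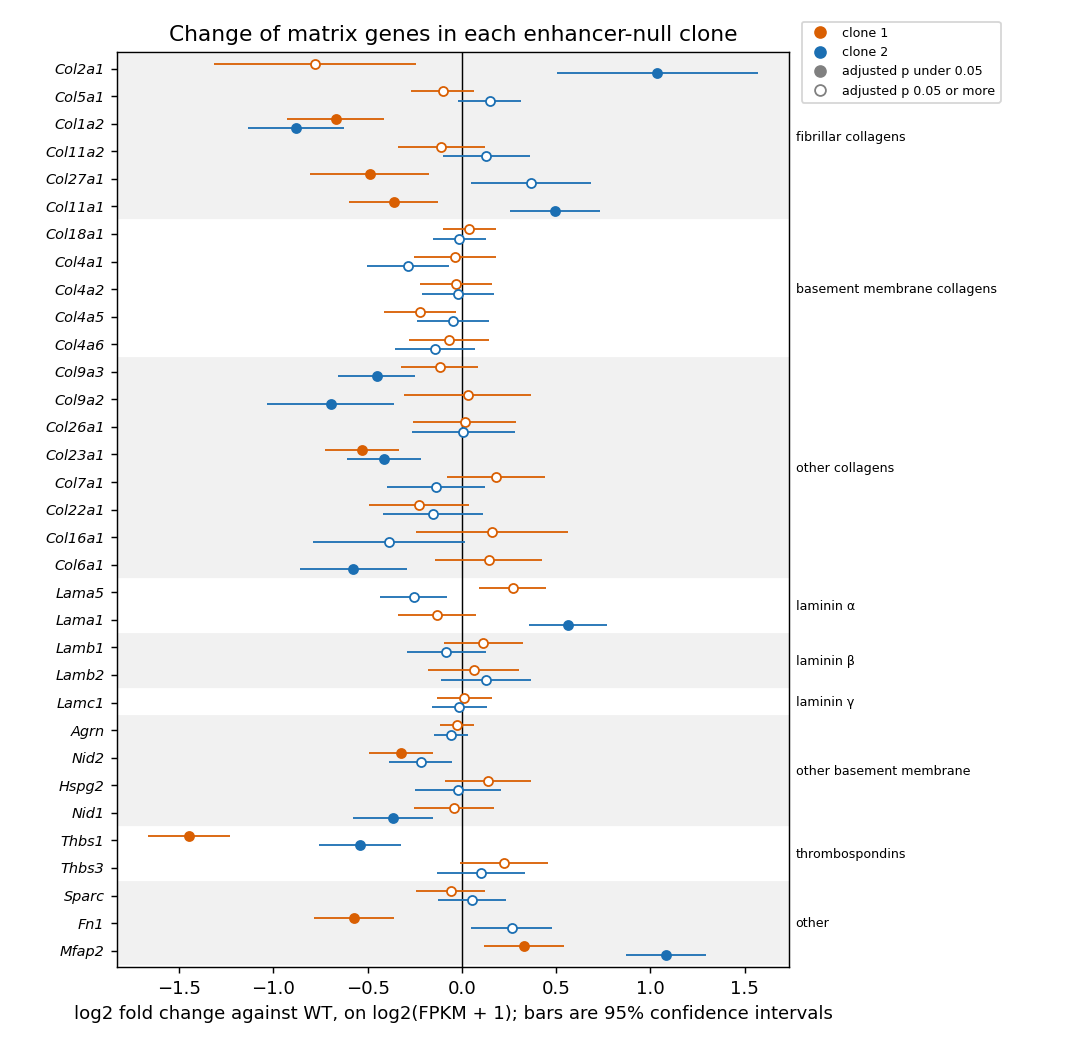
Log2 fold change against WT of the 33 tested matrix genes in clone 1 and clone 2, on log2(FPKM + 1), with 95% confidence intervals from limma; filled points have an adjusted p under 0.05. Thbs1 at -1.45 in clone 1, and Mfap2 at 1.08 and Col2a1 at 1.04 in clone 2, lie farthest from 0, and the basement membrane collagens and laminin beta and gamma chains stay near it.

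Among the thrombospondins, Thbs1 fell in both null lines. Thbs1 (ENSMUSG00000040152, chr2:118111876-118127133, plus strand, GRCm38) encodes a secreted glycoprotein that binds matrix proteins, activates latent TGF-beta and restrains blood vessel growth. The WT libraries held 89.5, 79.3, 90.1 and 78.7 FPKM, the clone 1 libraries 33.8 and 27.03, and the clone 2 libraries 59.7 and 55.4. The 3 groups did not overlap, with clone 1 lowest and clone 2 between clone 1 and WT. On the log2 scale Thbs1 changed by -1.45 (SE 0.09, adjusted p = 0.00028) in clone 1, a 2.78-fold lower mean, and -0.54 (SE 0.09, adjusted p = 0.014) in clone 2, a 1.47-fold lower mean. The clones themselves differed by 0.91 (SE 0.11, adjusted p = 0.00076), clone 2 being higher. The call in clone 2 was lost without clone 2 replicate 2 (log2 fold change -0.49, adjusted p = 0.152). An overlapping gene on the opposite strand, Gm29233, was at 0.611 to 4.34 FPKM. As these are bulk samples, fewer cells of a type that makes a transcript and less of it per cell cannot be told apart, here and below. Thbs3, a pentameric thrombospondin of cartilage and other tissues, stood at 39.5 ± 3.88 FPKM in WT, 46.3 ± 6.87 in clone 1 and 42.3 ± 0.274 in clone 2, with overlapping groups. It shares exon sequence with Mtx1 on the opposite strand, at 88.0 to 98.6 FPKM. Thbs2 and Thbs4 were below 1 FPKM on average.

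Fibronectin, Sparc and Mfap2 differed from one another in their behaviour. Fn1 (ENSMUSG00000026193, chr1:71585520-71653200, minus strand) encodes fibronectin, the main integrin ligand of provisional matrix. It stood at 43.5, 38.8, 46.2 and 41.6 FPKM in WT, 31.6 and 25.2 in clone 1 and 50.6 and 51.7 in clone 2. Every clone 1 library lay below, and every clone 2 library above, the WT range. It shares exon sequence with Apol7d on the opposite strand, at 1.81 to 5.71 FPKM. Fn1 fell in clone 1 by 0.57 on the log2 scale (SE 0.09, adjusted p = 0.0089), and its change in clone 2 was 0.26 (SE 0.09, adjusted p = 0.095). With only WT and clone 2 in the limma fit, the clone 2 change passed the threshold (adjusted p = 0.0422), so that call depends on the groups fitted. The difference between the clones was 0.84 (SE 0.11, adjusted p = 0.00088), a 1.80-fold higher mean in clone 2. Without clone 1 replicate 2 the change in clone 1 was -0.41 with an adjusted p of 0.0552.

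Mfap2 (ENSMUSG00000060572, chr4:141010418-141015984, plus strand) encodes a glycoprotein of fibrillin microfibrils. The WT libraries ranged from 4.56 to 5.90 FPKM (5.69, 5.9, 4.56 and 4.97), clone 1 had 6.74 and 7, and clone 2 had 12.3 and 12.3. Clone 2 was the highest group, clone 1 lay above all WT libraries, and no group overlapped another. Mfap2 rose in clone 2 by 1.08 (SE 0.09, adjusted p = 0.0011), a 2.32-fold higher mean. The rise in clone 1 was 0.33 (SE 0.09, adjusted p = 0.045) and passed the threshold in 4 of 15 alternative settings. Clone 2 exceeded clone 1 by 0.75 (SE 0.11, adjusted p = 0.0012). Sparc (ENSMUSG00000018593, chr11:55394500-55423183, minus strand), a collagen-binding glycoprotein made in quantity by endoderm and remodelling tissue, stood at 61.5, 71.8, 63.1 and 65.6 FPKM in WT, 66.3 and 59.4 in clone 1 and 73.1 and 63.1 in clone 2. The 3 groups overlapped, and the log2 fold changes were -0.06 (SE 0.08, adjusted p = 0.656) and 0.05 (SE 0.08, adjusted p = 0.696), with 95% intervals of -0.24 to 0.12 and -0.13 to 0.24. Tnc, which encodes tenascin-C, was low, at a WT mean of 0.303 FPKM.

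**Figure D3:**
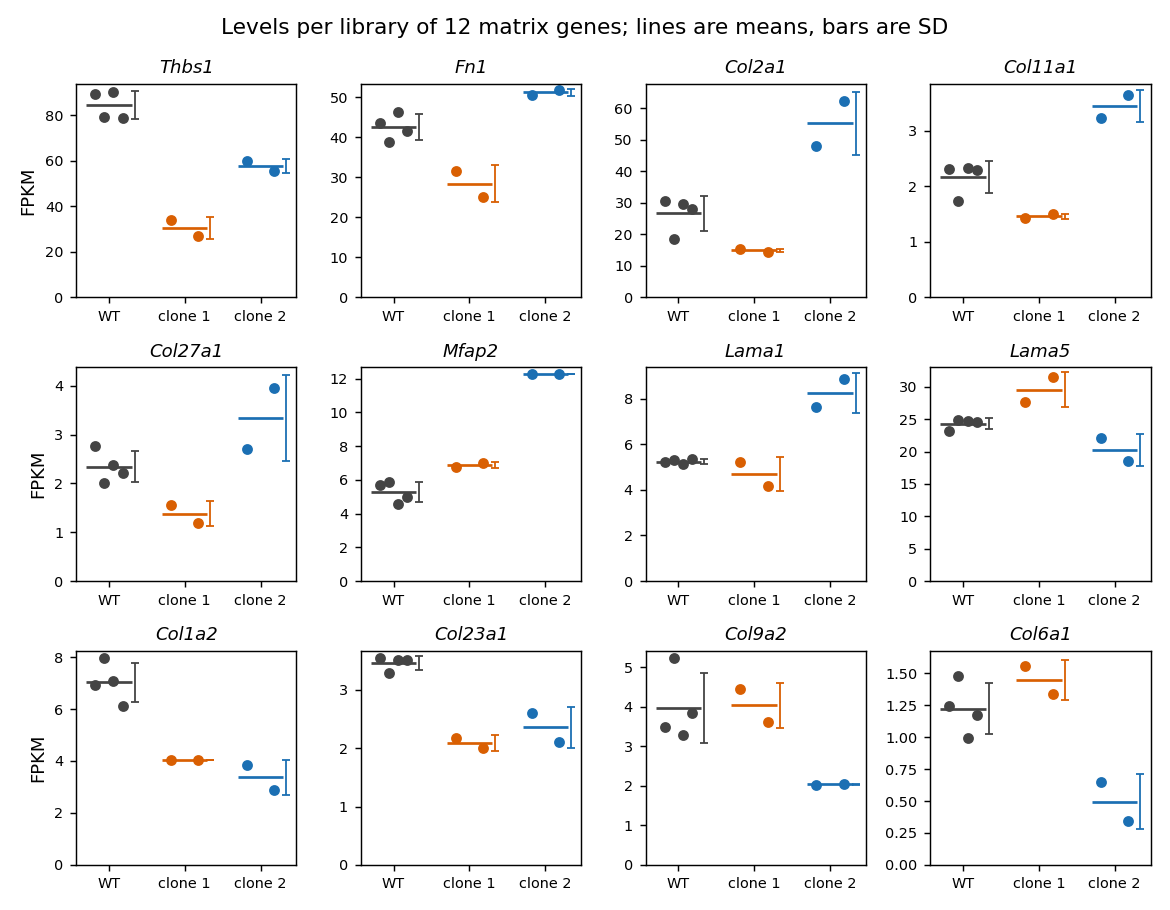
FPKM per library of 12 matrix genes in WT, clone 1 and clone 2; points are libraries, horizontal lines are group means, bars beside them are SD (n = 4, 2 and 2), and every vertical axis starts at 0. Thbs1, Col1a2 and Col23a1 have all 4 null libraries below the WT range, while Fn1, Col2a1 and Col11a1 have clone 1 below it and clone 2 above it.

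The fibrillar collagens held both rises and falls. Of 11 members 6 were tested. In clone 1 Col1a2, Col27a1 and Col11a1 fell and none rose (median log2 fold change of the 6 genes -0.43). In clone 2 Col2a1 and Col11a1 rose and Col1a2 fell, with a median of 0.26. Between the clones 4 of 6 were higher in clone 2 and none was lower, with a median of 0.55 against 0.05 over all genes tested. The background shares were 4.16 percent upwards and 11.4 percent downwards in clone 1, and 7.06 and 6.96 percent in clone 2. Between the clones they were 24.9 percent higher and 15.0 percent lower in clone 2. With 6 genes, the difference from these shares was not tested.

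Col2a1 (ENSMUSG00000022483, chr15:97975602-98004695, minus strand) encodes collagen II, the main collagen of cartilage, which the notochord and parts of the embryonic neuroepithelium also make. It was at 30.4, 18.5, 29.6 and 28.2 FPKM in WT, 15.3 and 14.4 in clone 1 and 48.1 and 62.4 in clone 2. WT replicate 2 lay well below the other 3 WT libraries, both clone 1 libraries lay below it, and both clone 2 libraries lay above all WT libraries. The change in clone 1 was -0.78 (SE 0.22, adjusted p = 0.063), and without WT replicate 2 it was -0.94 (adjusted p = 0.00177). In clone 2 Col2a1 rose by 1.04 (SE 0.22, adjusted p = 0.032), a call lost when WT replicate 3, WT replicate 4 or either clone 2 library was left out (adjusted p = 0.0589, 0.0724, 0.053 and 0.251). The clones differed by 1.82 (SE 0.25, adjusted p = 0.0029), a 3.72-fold higher mean in clone 2 and the largest difference between the clones among the 33 genes.

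Col11a1 (ENSMUSG00000027966, chr3:114030540-114220718, plus strand) encodes a chain of collagen XI, which copolymerizes with collagen II. It stood at 2.32, 1.74, 2.33 and 2.29 FPKM in WT, 1.42 and 1.49 in clone 1 and 3.24 and 3.65 in clone 2, again with clone 1 below and clone 2 above every WT library. Its log2 fold changes were -0.36 (SE 0.10, adjusted p = 0.049) in clone 1 and 0.49 (SE 0.10, adjusted p = 0.021) in clone 2, and the clones differed by 0.85 (SE 0.12, adjusted p = 0.0012). The call in clone 1 was lost in 12 of 15 alternative settings, and that in clone 2 without clone 2 replicate 2 (adjusted p = 0.216). Col27a1 (ENSMUSG00000045672, chr4:63214004-63334991, plus strand), a fibrillar collagen of cartilage, was at 2.76, 2.02, 2.37 and 2.22 FPKM in WT, 1.56 and 1.198 in clone 1 and 2.71 and 3.96 in clone 2. Clone 1 lay below all WT libraries and clone 2 overlapped them. Its changes were -0.49 (SE 0.14, adjusted p = 0.047) in clone 1, lost in 10 of 15 alternative settings, and 0.37 (SE 0.14, adjusted p = 0.114) in clone 2. The clones differed by 0.85 (SE 0.16, adjusted p = 0.0039).

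Col1a2 (ENSMUSG00000029661, chr6:4504814-4541544, plus strand), which encodes the alpha 2 chain of collagen I, fell in both null lines. The WT libraries held 6.94, 7.96, 7.06 and 6.13 FPKM, clone 1 4.03 and 4.02, and clone 2 3.84 and 2.899. All 4 null libraries lay below the lowest WT library. Col1a2 changed by -0.67 (SE 0.11, adjusted p = 0.0093) in clone 1 and -0.88 (SE 0.11, adjusted p = 0.0045) in clone 2, with means 1.74-fold and 2.08-fold lower. The clones differed by -0.21 (SE 0.13, adjusted p = 0.232), with a 95% interval of -0.50 to 0.09. Without clone 1 replicate 2 the change in clone 1 was -0.67 with an adjusted p of 0.0662. Col1a1, the partner chain in collagen I, was below the limit for testing at 0.509 ± 0.0594 FPKM in WT, 0.585 ± 0.0902 in clone 1 and 0.265 ± 0.0681 in clone 2. Col5a1, a regulator of fibril diameter, was at 9.75 ± 0.159 FPKM in WT and was higher in clone 2 than in clone 1 by 0.25 (SE 0.08, adjusted p = 0.044), a call lost in 10 of 15 alternatives. Col11a2 passed no test, with groups of 3.71 ± 0.377, 3.36 ± 0.0678 and 4.16 ± 0.6299 FPKM.

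The mesoderm and mesenchyme markers, genes of other cells that make fibrillar collagens, summed to 14.8 to 17.1 FPKM in WT, 13.8 to 15.0 in clone 1 and 15.9 to 18.7 in clone 2. Of the 14 markers found 2 reached 1 FPKM, Pdgfra and Twist1. Pdgfra, which neural progenitor cultures can also express, fell in clone 1 (log2 fold change -0.65, adjusted p = 0.0032), and Twist1 rose there by 0.56 (adjusted p = 0.018). Msgn1 was listed at 0 in all libraries, and Meox1, Mesp1 and Foxc1 were at most 0.13 FPKM. Neural crest markers summed to 46.6 to 52.1 FPKM in WT, 43.8 to 49.9 in clone 1 and 36.8 to 41.5 in clone 2, and Sox9, which neural progenitors and crest share, made up most of that sum. Of the 9 crest markers 4 were tested, among which Sox9 fell in both lines (log2 fold change -0.22, adjusted p = 0.043 and log2 fold change -0.42, adjusted p = 0.007), Ets1 rose in clone 1 (log2 fold change 0.76, adjusted p = 0.037) and Pax3 rose in clone 2 (log2 fold change 0.58, adjusted p = 0.017). Their part in the collagen values was not tested.

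Upstream sequence was printed for members that changed in 1 or both lines and whose upstream window lies outside annotated exons, with the RefSeq start just after the last base. Each line is the 150 bases before the RefSeq start (GRCm38.p6), from 5′ to 3′ on the gene's own strand, with GC boxes (GGGCGG or its reverse complement CCGCCC, bound by Sp family factors) and CCAAT boxes (CCAAT or ATTGG) in capitals. Col11a1 and Col27a1, both higher in clone 2 than in clone 1, are at chr3:114030390-114030539 and chr4:63215262-63215411. The RefSeq start of Col27a1 lies 1408 bases inside the gene as GENCODE annotates it, whereas both annotations place those of Col11a1 and Col23a1 at the same base. Col23a1, which was lower in both lines than in WT, is at chr11:51289770-51289919, and all 3 are on the plus strand.
Col11a1: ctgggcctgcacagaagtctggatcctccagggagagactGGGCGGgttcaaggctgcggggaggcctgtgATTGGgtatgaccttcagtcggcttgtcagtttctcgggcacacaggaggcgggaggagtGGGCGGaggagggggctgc
Col27a1: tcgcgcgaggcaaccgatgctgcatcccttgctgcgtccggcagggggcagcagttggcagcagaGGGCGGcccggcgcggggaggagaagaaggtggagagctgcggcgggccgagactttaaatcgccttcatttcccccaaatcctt
Col23a1: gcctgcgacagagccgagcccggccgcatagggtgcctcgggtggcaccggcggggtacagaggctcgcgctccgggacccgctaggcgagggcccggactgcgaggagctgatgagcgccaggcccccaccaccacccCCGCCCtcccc

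Searched on both strands, the Col11a1 window held 2 GC boxes and 1 CCAAT box, and the windows of Col27a1 and Col23a1 held 1 GC box each. RefSeq windows were found for 49 of the 67 genes and for 24 of the 33 tested. Of these 24 windows 18 (75.0 percent) held a GC box, against 56.7 percent of 8700 windows of other tested genes and 29.0 percent of all 27025. CCAAT was found in 7 of 24 (29.2 percent), against 29.3 and 25.3 percent. TATAAA was found in 1 of 24, that of Col11a2 (4.17 percent), against 2.47 and 8.08 percent. A match describes the letters and not a bound site.

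Among the other collagens, 8 of 25 members were tested. Col23a1 fell in both null lines, and Col9a2, Col9a3 and Col6a1 fell in clone 2. Col23a1 (ENSMUSG00000063564, chr11:51289920-51583918, plus strand) encodes a transmembrane collagen of the cell surface. It was at 3.55, 3.28, 3.51 and 3.51 FPKM in WT, 2.18 and 1.996 in clone 1 and 2.61 and 2.11 in clone 2, so that all 4 null libraries lay below all 4 WT libraries. The log2 fold changes were -0.53 (SE 0.09, adjusted p = 0.0086) and -0.41 (SE 0.09, adjusted p = 0.021), with no difference past the threshold between the clones (log2 fold change 0.12, SE 0.10, adjusted p = 0.378, 95% interval -0.11 to 0.35). The clone 1 call was lost without clone 1 replicate 2 (adjusted p = 0.0581), and the clone 2 call without clone 2 replicate 2 or WT replicate 4 (0.221 and 0.0574).

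Collagen IX decorates the surface of collagen II fibrils. Its chain gene Col9a2 (ENSMUSG00000028626, chr4:121039385-121055322, plus strand) stood at 3.49, 5.25, 3.29 and 3.85 FPKM in WT, 4.45 and 3.63 in clone 1 and 2.03 and 2.05 in clone 2. WT and clone 1 overlapped and clone 2 lay below both. The changes were 0.03 (SE 0.15, adjusted p = 0.911) in clone 1 and -0.69 (SE 0.15, adjusted p = 0.021) in clone 2, and the clones differed by -0.72 (SE 0.17, adjusted p = 0.01). Leaving out WT replicate 4, clone 2 replicate 1 or clone 2 replicate 2 ended the clone 2 call (adjusted p = 0.0535, 0.0663 and 0.177), and leaving out clone 1 replicate 1 or clone 2 replicate 2 ended that between the clones (0.0598 and 0.052). Col9a3 had WT values of 6.19, 6.36, 5.34 and 6.18 FPKM, clone 1 values of 5.45 and 5.45 and clone 2 values of 3.74 and 4.52, and fell in clone 2 by 0.45 on the log2 scale (adjusted p = 0.018), a call lost in 4 of 15 alternatives, among them without clone 2 replicate 2 (0.0583). It shares exon sequence with Tcfl5 on the opposite strand, at 11.3 to 23.4 FPKM. In clone 2 Col9a2 and Col9a3 were thus low while Col2a1 and Col11a1 were high.

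Col6a1 (ENSMUSG00000001119, chr10:76708792-76726168, minus strand) encodes a chain of collagen VI, which forms beaded microfilaments. It was at 1.25, 1.48, 0.993 and 1.18 FPKM in WT, 1.56 and 1.34 in clone 1 and 0.649 and 0.341 in clone 2, where both libraries lay below all others. Its change was 0.14 (SE 0.12, adjusted p = 0.464) in clone 1 and -0.58 (SE 0.12, adjusted p = 0.022) in clone 2, and the clones differed by -0.72 (SE 0.14, adjusted p = 0.0051). The clone 2 call was lost without clone 2 replicate 2 (adjusted p = 0.229) or WT replicate 4 (0.0546). Col6a2, its partner chain, was under the limit for testing, at 0.878 ± 0.0391 FPKM in WT, 0.878 ± 0.2498 in clone 1 and 0.417 ± 0.101 in clone 2. Col7a1, Col16a1, Col22a1 and Col26a1 passed no test and had WT means of 2.66, 2.12, 2.80 and 3.41 FPKM.

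Of the laminin genes, Lama1 rose in clone 2 and no other chain passed the threshold against WT, while both alpha chains differed between the clones. Lamb1 (ENSMUSG00000002900, chr12:31265234-31329644, plus strand) stood at 22.3, 23.9, 21.1 and 20.3 FPKM in WT, 26.1 and 21.6 in clone 1 and 21.9 and 19.3 in clone 2. Lamc1 (ENSMUSG00000026478, chr1:153218922-153332786, minus strand), the gamma chain of most laminins, stood at 28.8, 29.8, 27.9 and 28.4 FPKM in WT, 31.4 and 26.8 in clone 1 and 28.9 and 27.96 in clone 2. In both genes the 3 groups overlapped. The log2 fold changes of Lamb1 were 0.11 (SE 0.09, adjusted p = 0.423) and -0.08 (SE 0.09, adjusted p = 0.585), with 95% intervals of -0.10 to 0.32 and -0.29 to 0.13. Those of Lamc1 were 0.01 (SE 0.06, adjusted p = 0.912) and -0.01 (SE 0.06, adjusted p = 0.912), with intervals of -0.13 to 0.16 and -0.16 to 0.13. Lamb2, the beta chain prominent at synapses and in kidney, was at 16.3 ± 1.35, 17.1 ± 1.001 and 18.02 ± 3.26 FPKM and passed no test.

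Lama1 (ENSMUSG00000032796, chr17:67697259-67822647, plus strand) encodes the alpha chain of the earliest laminin of the embryo. The WT libraries were close together at 5.205, 5.29, 5.12 and 5.34 FPKM, clone 1 had 5.23 and 4.19, and clone 2 had 7.62 and 8.86. Clone 1 overlapped WT at its upper library, and clone 2 lay above all others. Lama1 rose in clone 2 by 0.56 (SE 0.09, adjusted p = 0.0092), a 1.57-fold higher mean, and its change in clone 1 was -0.13 (SE 0.09, adjusted p = 0.343). The difference between the clones was 0.70 (SE 0.11, adjusted p = 0.0015). Without clone 2 replicate 2 the clone 2 change was 0.47 with an adjusted p of 0.119. Lama5 (ENSMUSG00000015647, chr2:180176373-180225859, minus strand), the broadly expressed alpha chain of later basement membranes, stood at 23.2, 24.9, 24.7 and 24.6 FPKM in WT, 27.6 and 31.5 in clone 1 and 22.05 and 18.5 in clone 2. Clone 1 was above and clone 2 below all WT libraries. Neither change against WT passed the threshold (log2 fold change 0.27, SE 0.08, adjusted p = 0.05 and log2 fold change -0.25, SE 0.08, adjusted p = 0.063), whereas clone 2 was lower than clone 1 by 0.52 on the log2 scale (SE 0.09, adjusted p = 0.0027).

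The ratio of Lama1 to Lama5 was 0.216 ± 0.00742 in WT, 0.161 ± 0.0398 in clone 1 and 0.412 ± 0.0936 in clone 2 (mean ± SD of the library ratios, n = 4, 2 and 2). Lama1 made up 17.1 to 18.1 percent of the FPKM of all alpha chains in WT, 15.9 and 11.6 percent in clone 1, and 25.4 and 32.2 percent in clone 2. The summed alpha chains ranged from 27.5 to 36.2 FPKM over the 8 libraries, so the share moved more than the total. These ratios were not tested beyond the fits of the single genes. Lama2, Lama3, Lama4, Lamb3 and Lamc3 were below 1 FPKM on average.

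**Figure D4:**
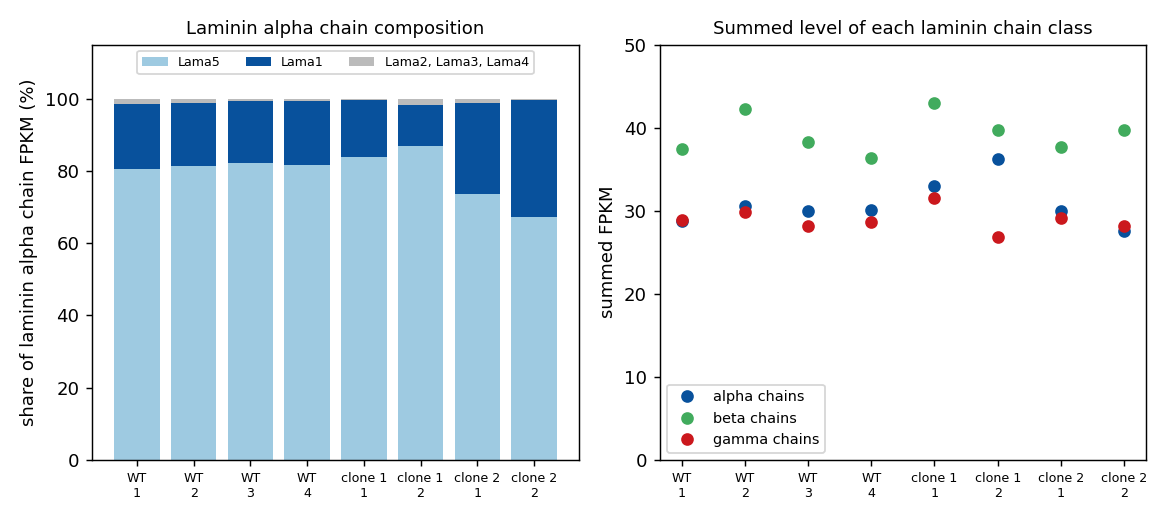
Left, the share of laminin alpha chain FPKM (percent) taken by Lama5, Lama1 and the other alpha chains in each library; right, the summed FPKM of the alpha, beta and gamma chains in each library, from 0. Lama1 takes 25.4 and 32.2 percent in the clone 2 libraries against at most 18.1 percent elsewhere, while the 3 sums stay between 26.9 and 43.0 FPKM.

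Parietal and visceral endoderm makes Lama1, Lamb1, Col4a1 and Sparc in quantity, so its markers are given beside the laminins. Of 17 such markers 3 were tested, Dab2, Plat and Pth1r, and the list summed to 21.9 to 24.03 FPKM in WT, 16.4 to 17.5 in clone 1 and 27.8 in both clone 2 libraries. Plat and Pth1r fell in clone 1 (log2 fold change -0.60, adjusted p = 0.0028 and log2 fold change -0.62, adjusted p = 0.014), and Pth1r rose in clone 2 (log2 fold change 0.45, adjusted p = 0.042). Among the markers that were not tested, Sox7, Sox17 and Gata6 were at most 0.14 FPKM, Afp at most 0.06 and Hnf4a at most 0.06 in any library. These genes were named after their values were seen. The part of endoderm cells in the laminin values was not tested. The endothelial list had no marker at a mean of 1 FPKM among 9, summed to at most 1.37 FPKM, and had Emcn listed at 0 in all libraries.

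None of the 5 basement membrane collagens tested, of 8 members, passed the threshold in any comparison. Col4a1 (ENSMUSG00000031502, chr8:11198423-11312826, minus strand) and Col4a2 (ENSMUSG00000031503, chr8:11312805-11449287, plus strand) encode the chains of the most common collagen IV. Col4a1 stood at 22.2, 25.4, 23.1 and 23.5 FPKM in WT, 25.5 and 20.5 in clone 1 and 20.6 and 17.7 in clone 2. Col4a2 stood at 11.8, 13.6, 12.3 and 12.7 FPKM in WT, 13.4 and 11.3 in clone 1 and 12.9 and 11.8 in clone 2. Both clone 2 values of Col4a1 lay below the WT range, whereas all groups of Col4a2 overlapped. The log2 fold changes of Col4a1 were -0.04 (SE 0.10, adjusted p = 0.825) and -0.29 (SE 0.10, adjusted p = 0.079), the latter past the threshold in 4 of 15 alternatives, rescaling by the median of ratios among them (adjusted p = 0.0454). Those of Col4a2 were -0.03 (SE 0.08, adjusted p = 0.823) and -0.02 (SE 0.08, adjusted p = 0.9), with 95% intervals of -0.22 to 0.16 and -0.21 to 0.17.

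The genes lie head to head and their annotated 5′ ends overlap by 22 bases (chr8:11312805-11312826), a layout known for its shared bidirectional promoter. Their ratio, Col4a1 over Col4a2, was 1.87 ± 0.016 in WT, 1.87 ± 0.0597 in clone 1 and 1.54 ± 0.0653 in clone 2. The WT ratios ranged from 1.85 to 1.88, and both clone 2 ratios, 1.497 and 1.59, lay below them; the difference was not tested. Col4a5 and Col4a6, another such pair with starts 1309 bases apart on chromosome X, were at 5.26 ± 0.327 and 3.43 ± 0.228 FPKM in WT. Col4a3 and Col4a4, with starts 72 bases apart on chromosome 1, were nearly silent, with WT means of 0.00991 and 0.0105 FPKM. Col18a1 was at 65.7, 70.95, 64.8 and 64.97 FPKM in WT, 73.1 and 64.1 in clone 1 and 67.9 and 63.97 in clone 2, with changes of 0.04 (SE 0.06, adjusted p = 0.696) and -0.01 (SE 0.06, adjusted p = 0.906).

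Of the linkers of the basement membrane, Nid2 fell in clone 1 and Nid1 in clone 2. Nid2 (ENSMUSG00000021806, chr14:19751265-19811787, plus strand), which encodes a nidogen, stood at 17.2, 16.9, 17.3 and 16.1 FPKM in WT, 14.2 and 12.4 in clone 1 and 15.4 and 13.4 in clone 2, with all null libraries below all WT libraries. It fell in clone 1 by 0.32 on the log2 scale (SE 0.07, adjusted p = 0.024), and the change in clone 2 was -0.22 (SE 0.07, adjusted p = 0.083). The clone 1 call was lost without clone 1 replicate 2, WT replicate 1 or WT replicate 3 (adjusted p = 0.139, 0.0613 and 0.0659). Nid2 shares exon sequence with Rtraf on the opposite strand, at 107 to 116 FPKM. Its relative Nid1 had 3.695, 4.27, 3.93 and 3.76 FPKM in WT, 4.17 and 3.39 in clone 1 and 2.97 and 2.67 in clone 2, and fell in clone 2 by 0.36 on the log2 scale (adjusted p = 0.037), a call lost in 8 of 15 alternatives. Agrn, which encodes agrin, spanned 50.03 to 53.1 FPKM over the 8 libraries, and its log2 fold changes of -0.03 (adjusted p = 0.695) and -0.06 (adjusted p = 0.36) had 95% intervals of -0.12 to 0.07 and -0.15 to 0.03. Hspg2, which encodes perlecan, was at 10.4 ± 0.848, 11.5 ± 0.108 and 10.3 ± 1.82 FPKM and passed no test.

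With the 4 null libraries taken as 1 group against the 4 WT libraries, none of the 33 genes passed the threshold in limma, and 6 had an unadjusted p under 0.05, 1 higher and 5 lower. Over all genes tested the background was 0.0551 percent, 0.00689 percent upwards and 0.0482 percent downwards, with 688 genes at an unadjusted p under 0.05. The smallest p-values belonged to Col1a2 (log2 fold change -0.77, SE 0.11, adjusted p = 0.109), Col23a1 (log2 fold change -0.47, SE 0.08, adjusted p = 0.183) and Nid2 (log2 fold change -0.27, SE 0.07, adjusted p = 0.581). Thbs1 had a larger change (log2 fold change -1.0, adjusted p = 0.594) and that of Mfap2 was 0.71 (adjusted p = 0.765), and in both genes the clones differed. When the mean of both clones was set against WT in the fit of 3 groups, whose error leaves out the spread between lines, 4 genes passed, against a background of 0.73 percent: Thbs1, Col1a2 and Col23a1 lower and Mfap2 higher. In the authors' deposited table, whose p-values have no stated test, the mean reads of Col1a2 were 1014 in WT and 529.07 in null, those of Col23a1 were 600.42 and 397.08, and those of Thbs1 were 14661 and 7780. The same deposited table gave Mfap2 164.43 and 293.83 mean reads.

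The 34 genes below 1 FPKM on average entered no test, and their means ranged from 0.00107 FPKM for Col19a1 to 0.784 for Thbs2. They included all remaining fibrillar collagens (Col1a1, Col3a1, Col5a2, Col5a3 and Col24a1), and 17 of the 25 other collagens. Col3a1, a mesenchymal collagen, was listed at 0 in 4 of 8 libraries and Col19a1 in 7. Of the 34, 7 had both clone 2 libraries below all others, among them Thbs2 (means of 0.813 FPKM in WT, 1.14 in clone 1 and 0.365 in clone 2), Col5a3 (0.507, 0.715 and 0.187), Tnc (0.303, 0.373 and 0.126) and Lamb3 (0.364, 0.447 and 0.102). In 3 they lay above all others, namely Col13a1 (0.106, 0.0488 and 0.238), Col25a1 (0.389, 0.249 and 0.569) and Col14a1 (0.013, 0.0176 and 0.0351). Col8a1 was below the WT range in both lines (0.131, 0.0191 and 0.0429). These examples were chosen after their values were seen. The same counts were not made over all genes below 1 FPKM, so those of the 34 have no background to be read against.

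Genes that receive, modify and degrade the matrix were read from the same fits, as 7 lists, with the number tested given for each list. With all libraries the background shares were 15.6 percent in clone 1, 14.0 percent in clone 2 and 39.9 percent between the clones. Most of these calls rest on 1 library of each clone. In clone 1, 3 of 19 remained without clone 1 replicate 2 (Adamts9, Plat and Ctgf), with a background of 3.05 percent. In clone 2, 2 of 19 remained without clone 2 replicate 2 (Adamts3 and Ctgf), with a background of 1.20 percent, and the count was 11 without WT replicate 3 and 12 without WT replicate 4 (7.58 and 5.27 percent). Between the clones 46 differed, of which 26 remained without clone 2 replicate 2 (21.3 percent). Of the integrins, 8 of 21 were tested. Itgb8, whose integrin activates latent TGF-beta, fell in clone 1 (2.18 ± 0.4002 FPKM in WT, 0.616 ± 0.0153 in clone 1; log2 fold change -0.97, adjusted p = 0.0053) and rose in clone 2 (3.77 ± 0.6997 FPKM; log2 fold change 0.59, adjusted p = 0.027). Itgb5, a vitronectin receptor chain, fell in clone 2 from 15.7 ± 2.003 to 8.85 ± 1.66 FPKM (log2 fold change -0.77, adjusted p = 0.0094). Itgb8 and Itgb5 were the integrins that changed against WT in either clone. Of 10 tested other matrix receptors, 1 fell in clone 1, and in clone 2 1 rose and 2 fell. The hyaluronan receptor Cd44 fell in clone 2 (5.38 ± 0.4295 to 2.93 ± 0.788 FPKM, log2 fold change -0.71, adjusted p = 0.016), as did the collagen receptor Ddr1 (log2 fold change -0.26, adjusted p = 0.018). The syndecan Sdc1 fell in clone 1 (log2 fold change -0.20, adjusted p = 0.033) and rose in clone 2 (log2 fold change 0.21, adjusted p = 0.031).

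Collagen folding and modification enzymes, 17 tested of 19 found, had 2 falls in clone 1 and 4 rises in clone 2, and between the clones 8 were higher and 2 lower in clone 2. Their medians were -0.11 in clone 1 and 0.01 in clone 2. P4hb, the disulfide isomerase subunit of collagen prolyl hydroxylase, was at 145 ± 4.19 FPKM in WT, fell to 127 ± 4.07 in clone 1 (log2 fold change -0.20, adjusted p = 0.013) and rose to 175 ± 3.21 in clone 2 (log2 fold change 0.27, adjusted p = 0.006). The prolyl isomerase gene Fkbp14 fell in clone 1 (log2 fold change -0.39, adjusted p = 0.013). Ppib, another prolyl isomerase, and Crtap, a part of the prolyl hydroxylation complex, rose in clone 2 (log2 fold change 0.20, adjusted p = 0.017 and log2 fold change 0.34, adjusted p = 0.023).

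Crosslinking and propeptide processing genes, 8 tested of 14 found, had 1 rise and 2 falls in clone 1 and 2 rises in clone 2, with medians of -0.30 and 0.01. Adamts3, a procollagen II N-propeptidase, rose in clone 2 from 1.81 ± 0.333 to 6.99 ± 2.23 FPKM (log2 fold change 1.49, adjusted p = 0.0034). Bmp1, the procollagen C-proteinase, fell in clone 1 (5.999 ± 0.172 against 8.08 ± 0.519 FPKM, log2 fold change -0.37, adjusted p = 0.04) and rose in clone 2 (12.6 ± 2.35 FPKM, log2 fold change 0.57, adjusted p = 0.013). Pxdn, which crosslinks collagen IV, fell in clone 1 from 52.6 ± 2.24 to 39.6 ± 5.71 FPKM (log2 fold change -0.41, adjusted p = 0.013). Pcolce, an enhancer of Bmp1 action, rose in clone 1 (log2 fold change 0.46, adjusted p = 0.033).

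Of 17 tested proteases and inhibitors, 2 rose and 4 fell in clone 1, and 1 rose and 1 fell in clone 2. Adamts9, a versican protease, fell in clone 1 (8.09 ± 0.5403 to 4.33 ± 0.432 FPKM, log2 fold change -0.77, adjusted p = 0.0023) and rose in clone 2 (10.2 ± 0.368 FPKM, log2 fold change 0.30, adjusted p = 0.04). Plat, the tissue plasminogen activator, and the metalloprotease inhibitor Timp3 fell in clone 1 (log2 fold change -0.60, adjusted p = 0.0028 and log2 fold change -0.52, adjusted p = 0.011). The serpin Serpine2 rose there (log2 fold change 0.47, adjusted p = 0.012).

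Other basement membrane and matricellular genes, 21 tested of 38 found, had 2 rises and 3 falls in clone 1 and 2 rises and 2 falls in clone 2. Ctgf, a matricellular gene known as a target of TGF-beta and YAP signalling, held 7.71, 5.298, 7.75 and 7.02 FPKM in WT, 1.13 and 1.35 in clone 1 and 15.7 and 15.5 in clone 2. The groups were far apart, with clone 1 below and clone 2 above all WT libraries. Its log2 fold change was -1.82 (adjusted p = 0.00032) in clone 1 and 1.08 (adjusted p = 0.0041) in clone 2. The netrin gene Ntn1 fell in clone 1 (log2 fold change -0.29, adjusted p = 0.017), the testican gene Spock1 rose there (log2 fold change 0.86, adjusted p = 0.021), and the latent TGF-beta binding protein gene Ltbp4 fell in clone 2 (log2 fold change -0.25, adjusted p = 0.035). Of 9 tested proteoglycans, Ptprz1 fell in clone 1 (log2 fold change -0.66, adjusted p = 0.017), and the brain proteoglycan gene Bcan and the glypican gene Gpc4 fell in clone 2 (log2 fold change -0.69, adjusted p = 0.0081 and log2 fold change -1.06, adjusted p = 0.012).

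All 15 anterior neural progenitor markers reached a mean of 1 FPKM over the 8 libraries. Their sum was 724 to 780 FPKM in WT, 658 to 723 in clone 1 and 694 to 711 in clone 2. Within the list the markers did not move together. The background for the marker counts given here was 4.16 percent upwards and 11.4 percent downwards in clone 1. In clone 2 it was 7.06 percent upwards and 6.96 percent downwards. In clone 1 none rose and 6 fell (Cdh2, Lhx2, Nes, Sox1, Sox3 and Zic1). In clone 2 6 rose (Fabp7, Zic1, Vim, Nes, Cdh2 and Sox1) and 5 fell. The 5 were Hesx1 (log2 fold change -2.43), Rax (-1.82), Pax6 (-1.39), Lhx2 (-1.02) and Otx2 (-0.31). Markers of other states also moved with the lines. Pluripotency markers, 7 tested of 11, summed to 105 to 134 FPKM in WT, 181 to 201 in clone 1 and 76.2 to 87.8 in clone 2; 6 rose in clone 1 and 3 fell in clone 2. Surface ectoderm and epithelial markers, 6 tested of 11, summed to 38.6 to 56.6 FPKM in WT, 78.6 to 91.2 in clone 1 and 30.9 to 44.1 in clone 2. In clone 1 4 of them rose, the junction and adhesion genes Cdh1, Cldn6, Cldn7 and Epcam, against 4.16 percent of all genes tested. None changed in clone 2. Neuron markers, 7 tested of 8 found, summed to 75.3 to 81.0 FPKM in WT, 74.4 to 85.3 in clone 1 and 60.7 to 62.0 in clone 2; 1 rose in clone 1 and 2 fell in clone 2. Over all marker lists, leaving aside genes of the 7 related lists, 7 of 22 calls in clone 1 remained without clone 1 replicate 2, and 5 of 19 in clone 2 without clone 2 replicate 2. The part of these states in the values of the matrix genes was not tested.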

How the data were processed

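RNA was measured in 8 libraries. Values per library are FPKM made by the authors (per the file headers). That deposited table gives the authors' mean read signal per genotype, whose scaling is not stated, their fold, which is a ratio of those means, and a p-value whose test is not stated. The submitters' processing notes name TopHat2, Cufflinks, SAMtools, FastQC and DESeq2 without versions, and the builds mm10 and GRCm38. The sources used here do not give strand use in counting, so reads of overlapping genes cannot be told apart, and 11 tested members overlap exons of another gene. Groups came from the sample labels, and each null column was tied to its clone by its header, not to 1 sample. Total depth is unknown for each library. The sum of the authors' mean reads was 26693189 (WT) and 26864352 (null). Relative depths were the most common ratio to WT replicate 1 among genes with very few reads, with only ratios near equality kept. An FPKM of 0 can be a failed estimate.

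Members, gene lists and tests were chosen with earlier results of these data known. Members described in full were the chains of the first laminin, Col4a1, Col4a2, Fn1 and Sparc, the 6 largest called changes of each clone comparison, and the 3 smallest p-values of null against WT. From each related list up to 4 called genes were named; others were named after their values were seen. limma 3.58.1 in R 4.3.3 (trend and robust moderation, two-sided) was fitted to log2(FPKM + 1) for 14521 genes whose mean reached 1 FPKM, with 3 groups for the clone comparisons and 2 groups for null against WT, and Benjamini-Hochberg adjustment over all of them at 0.05. The script was tested on simulated data. Alternatives changed the pseudocount, the filter, the scaling, the moderation, the groups fitted, a block for line or replicate number, and left out each library. Locations are from GENCODE M21 (GRCm38) and upstream windows from RefSeq (GRCm38.p6).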

Additional observations from a re-analysis of the deposited data

Results flagged for a closer look

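In 4 of the 33 tested genes a single WT library lay far from the other 3, and in each it was WT replicate 2. It held 1.74 FPKM of Col11a1, below the other WT libraries, and 3.28 of Col23a1, also below. It held 71.0 FPKM of Col18a1 and 11.6 of Hspg2, both above. About 1 in 20 groups meet this criterion by chance.

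In 13 of the 33 genes clone 2 differed from clone 1 by limma's test of the difference. Clone 2 was higher for Col2a1 (log2 difference 1.82), Thbs1 (0.906), Col27a1 (0.855), Col11a1 (0.854), Fn1 (0.836), Mfap2 (0.754), Lama1 (0.697) and Col5a1 (0.248). It was lower for Col9a2 (-0.725), Col6a1 (-0.717), Lama5 (-0.524), Col9a3 (-0.334) and Nid1 (-0.319). Over all genes tested 39.9 percent differed in that comparison.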

How the results depend on the processing

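Across 17 alternatives no call on a member or a listed gene in the 3 comparisons with a clone changed direction, and 9 of 26 calls on members described in full passed under each alternative run for them: Thbs1 in clone 1, Mfap2 in clone 2, and Thbs1, Mfap2, Lama1, Fn1, Col27a1, Col11a1 and Col6a1 between the clones. Values that had not passed changed sign in 49 cases and passed in 15. Leaving out 1 library gave 1 to 9 changed members in clone 1 (8 with all libraries), 2 to 13 in clone 2 (11) and 10 to 13 between the clones (13). For the 7 related lists these counts were 3 to 22 (19), 2 to 22 (19) and 26 to 47 (46), lowest without clone 1 replicate 2 for clone 1 and without clone 2 replicate 2 for the other two. A clone left with 1 library was assumed to vary like the other groups. The median log2 fold change of the members in clone 1 ranged from -0.125 to 0.0103. With a replicate block on the libraries numbered 1 and 2, which keeps 2 of the 4 WT libraries, the member counts were 1 in clone 1, 1 in clone 2 and 9 between the clones (backgrounds of 0.241, 0.296 and 20.6 percent), and the list counts 1, 0 and 28. The difference of library 1 from library 2 correlated at -0.0149 between WT and clone 1, 0.00911 between WT and clone 2 and -0.0853 between the clones. Pairings with WT replicates 3 and 4 were not examined. The mean of both clones in the fit of 3 groups gave 4 changed members where null against WT gave 0. Rescaling shifted the median of all genes by at most 0.0504. Depth per library is unknown, so counting error of low genes could not be set apart.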

Other observations

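Col1a2 lies on chromosome 6, and 7 other tested genes start within 500 kb of it (chosen after the values of Col1a2 were seen). Sgce, the sarcoglycan epsilon gene 242.4 kb away, stood at 19.4 ± 1.06 FPKM in WT (n = 4), 13.6 ± 0.353 in clone 1 and 13.1 ± 0.422 in clone 2 (n = 2 each), and fell in both lines (log2 fold change -0.48, limma adjusted p = 0.0038, and -0.54, adjusted p = 0.0037). Casd1, which lies between them at 96.0 kb, fell in clone 1 (-0.24, adjusted p = 0.029) and had a change of 0.01 in clone 2 (adjusted p = 0.90). Ppp1r9a, at 398.1 kb, fell in clone 1 (-0.34, adjusted p = 0.041) and had -0.02 in clone 2 (adjusted p = 0.91). The 4 other genes passed neither comparison. Among them Peg10, at 242.5 kb, stood at 72.8 ± 10.2 FPKM in WT and 28.5 ± 2.98 in clone 1. In clone 2 it was at 30.1 ± 42.5 FPKM, as it was listed at 0 in 1 library there. That spread enters the error of both comparisons (-1.32, limma adjusted p = 0.63, and -3.23, adjusted p = 0.25), so the lack of a call does not show that Peg10 was unchanged.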
